A study of Mus musculus with 6 samples.

Results

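Fibroblast growth factors (FGFs) are secreted proteins that bind receptor tyrosine kinases and activate the RAS, RAF, MEK and ERK kinase cascade. Active ERK raises the transcription of ETS factors of the PEA3 group (Etv1, Etv4, Etv5) and of inhibitors that act back on the cascade, among them the Sprouty proteins and the ERK phosphatase Dusp6, so these genes are widely read as markers of FGF and ERK activity. In the embryonic retina FGFs are known for roles in specifying neural retina and in the onset of ganglion cell production. Described here are 10 of the 27998 genes in the deposited table: the ligands Fgf15, Fgf3 and Fgf9, the feedback inhibitors Spry1, Spry2, Spry4 and Dusp6, and the ETS factors Etv1, Etv4 and Etv5. They were chosen by name for their place in the pathway, and the UMIs (molecules counted after removal of copies made by PCR) of each were summed per library and cell type.

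Retinas of mouse embryos at embryonic day 14 had been profiled by droplet single-cell RNA-seq with 10x Genomics 3′ version 2 chemistry. The first group was heterozygous for a Bax mutation and null for Atoh7 (Bax het Atoh7 null). The second was null for Bax, with no Atoh7 mutation in its name (Bax null), and the third was null for both (Bax null Atoh7 null). Each group had 2 libraries, with 67050 cells in all. Atoh7 encodes a bHLH factor that retinal progenitors need to make ganglion cells, while the product of Bax carries out apoptosis. All 3 groups carried a mutation of Bax, so no group had both genes intact, and the labels used here give neither strain nor sex, nor whether retinas were pooled. The authors had sorted the cells into retinal progenitor cells (RPC), neurogenic cells, retinal ganglion cells (RGC), cones and horizontal cells.

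Library totals ranged from 22463515 to 66594431 UMIs, and the median cell from 1634 to 6804 UMIs, with both Bax null libraries the deepest. Atoh7 had 255 and 298 UMIs in neurogenic cells of the Bax null libraries and 0 in the other 4. Bax stood in RPC at 15.4 and 14.02 in Bax null, at 33.4 and 4.72 in Bax null Atoh7 null, and at 114 and 80.6 in Bax het Atoh7 null libraries. The 2 Bax null Atoh7 null libraries shared 2596 cell barcodes, 22.0% of the smaller library, against 1.36% to 2.09% for the other 14 pairs of libraries. Of the shared barcodes, 89.4% carried the same cell type in both, against 50.4% from the shares of the types alone. They held 11.2% of the UMIs of replicate 1 and 38.3% of those of replicate 2. These 2 libraries may thus not be independent, and the spread between them, with the SD and SE that use it, may be too small. Of the 18 member calls in Bax null Atoh7 null minus Bax null, 4 were lost with the shared barcodes left out of both libraries, and each is named beside its result. The Bax null libraries stood apart in every cell type: a sum of 5 red-cell genes lay between 994 and 2254 there and between 2.04 and 198 elsewhere, and the progenitor gene Hes1 stood in RPC at 2056 and 2203 there and between 219 and 355 elsewhere. Whatever set those libraries apart cannot be told apart from the genotype in any comparison with Bax null.

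The cell type labels carried their markers. The summed level of 9 progenitor genes was 5922 to 8369 in RPC and 1633 to 2397 in RGC. That of 10 ganglion cell genes was 7770 to 16761 in RGC and at most 2832 in the other types, and that of 7 cone genes was 2854 to 4573 in cones and at most 349 elsewhere. Cells labelled horizontal had 4 horizontal cell genes at 1505 to 1770, but also 5 amacrine genes at 1068 to 1485 and the progenitor genes at 2549 to 5236. Within the progenitor sum, Pax6 alone stood at 731 to 1736 in RGC and 1087 to 3480 in horizontal cells. A level here is in CPM, the UMI count of a gene relative to all UMIs of that cell type in that library, after TMM (trimmed mean of M values) scaling. The 3′ counts are not divided by gene length, and such counts need no length correction. The authors' gene table marks 6 of the 10 genes (Fgf15, Fgf3, Fgf9, Spry1, Spry2, Dusp6) as used for ordering cells, and the types were drawn from these same cells, so differences between cell types are given as descriptions without a test.

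RPC had the highest mean level of 9 of the 10 genes, with Spry1 as the exception. Fgf15, the mouse counterpart of human FGF19, was by far the most abundant member. Its level in RPC was 1440 and 1456 in Bax null, 1607 and 1662 in Bax het Atoh7 null libraries, and 1559 and 1653 in Bax null Atoh7 null, with a mean of 1563 ± 96.3 (SD, n = 6). Neurogenic cells followed at 565 ± 108, horizontal cells at 412 ± 118, cones at 169 ± 81.5 and RGC at 159 ± 68.1 (SD, n = 6 each). RPC lay above neurogenic cells in 6 of 6 libraries without overlap, whereas the ranges of every later pair of neighbours in that order overlapped. After each cell was thinned to 1000 UMIs, 58.0% to 79.1% of RPC per library held at least 1 Fgf15 UMI, against 2.73% to 18.0% of cones (88.5% to 92.5% and 10.1% to 28.0% before thinning).

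Fgf3 and Fgf9, the other secreted ligands, showed the same peak at lower levels. Fgf3 stood at 102 ± 20.7 in RPC and 31.0 ± 4.41 in neurogenic cells, and Fgf9 at 155 ± 13.03 in RPC (SD, n = 6 each). Unlike the other ligands, Fgf9 had its next highest mean in RGC, at 76.4 ± 16.8 against 73.1 ± 8.56 in neurogenic cells, a pair whose ranges overlapped (RGC higher in 4 of 6 libraries). Those 4 were the Atoh7 null libraries. In Bax null the order was reversed, with neurogenic cells at 82.6 ± 5.92 and RGC at 55.3 ± 4.24 (SD, n = 2 each). Fgf3 (chr7:144838083-144844436) and Fgf15 (chr7:144896531-144900953, GRCm38, both on the plus strand) lie next to each other with Fgf4 between them, 52095 bases from the end of Fgf3 to the start of Fgf15. Of the 15 other secreted FGF genes listed, none but Fgf18 had a mean level above 10 in any cell type: Fgf18 stood at 84.7 in horizontal cells and 0.26 in RPC.

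Among the feedback inhibitors, Dusp6 was the most abundant, at 54.6 ± 10.9 in RPC, 35.3 ± 3.07 in neurogenic cells and 17.5 ± 2.78 in RGC, and these types did not overlap in that order. Spry2 stood at 15.0 ± 6.35 in RPC, and at 8.74 ± 3.02 in neurogenic cells. Spry1 was highest in neurogenic cells, at 11.9 ± 2.75 against 6.29 ± 1.36 in RPC, in 6 of 6 libraries and without overlap (SD, n = 6 each). Spry4 was close to the detection limit, with 14 to 50 UMIs per library in RPC (level 1.03 ± 0.41) and at most 8 in any other type.

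The ETS factors were also highest in RPC. Etv1 stood at 35.7 ± 2.41 in RPC and at 11.5 ± 2.73 in neurogenic cells, Etv5 at 29.8 ± 7.03 and 11.98 ± 8.56, and Etv4 at 6.76 ± 0.72 and 2.75 ± 0.87 (SD, n = 6 each). RPC and neurogenic cells did not overlap for Etv1 and Etv4, and overlapped for Etv5, which was higher in RPC in 6 of 6 libraries. The plot of levels by cell type shows all members in every library.

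**Figure D1:**
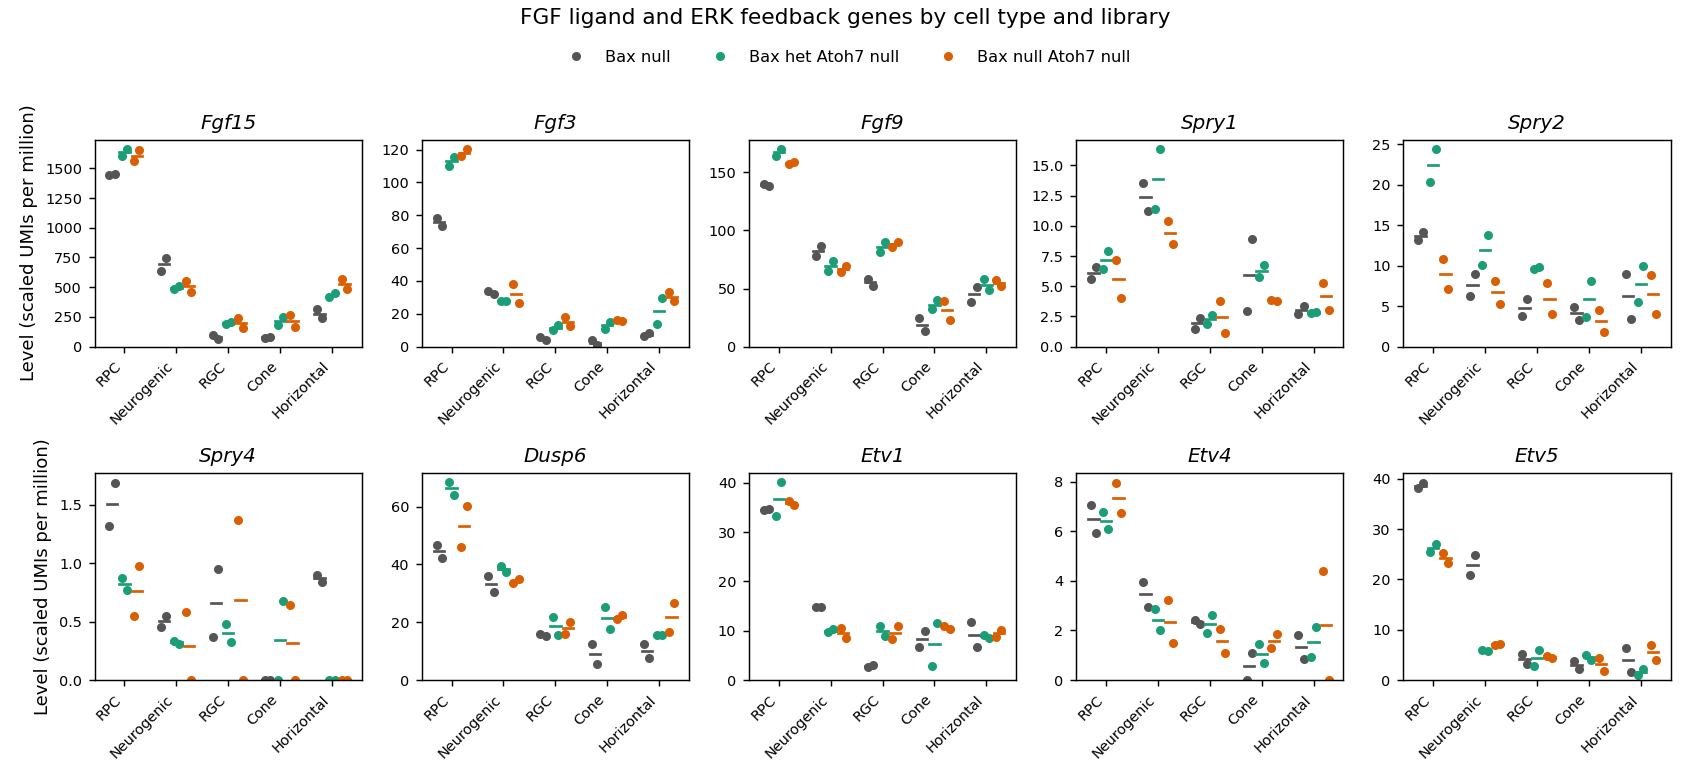
Level of each of the 10 genes (y axis, TMM-scaled CPM, linear from 0) in 5 cell types (x axis); points are single libraries, coloured by group, and short lines are the means of the 2 libraries of a group. The means of 9 genes peak in RPC and that of Spry1 in neurogenic cells, and Etv5 in neurogenic cells averages 7.08 in Bax null Atoh7 null, 5.96 in Bax het Atoh7 null and 22.9 with Atoh7 present (Bax null).

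Groups were compared within each cell type with the edgeR quasi-likelihood test on summed counts, fitted over all genes of that type, and a gene with a Benjamini-Hochberg adjusted p under 0.05 is described as called. Log2 fold changes carry their standard error (SE), and each group had 2 libraries. The replicates are separate libraries, and nothing in the labels says whether they came from separate animals, so the p-values measure only the spread between these libraries. Of the 50 combinations of member and cell type, 37 passed the filter on low counts: all 10 members in RPC, 9 in neurogenic cells, 7 in RGC, 5 in cones and 6 in horizontal cells. Spry1 and Etv4 were untested in RGC, cones and horizontal cells, Spry2 in cones, Spry4 in all types but RPC, and Etv5 in cones and horizontal cells.

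Loss of Atoh7 on a Bax null background was addressed by Bax null Atoh7 null minus Bax null, and the comparison of Bax het Atoh7 null minus Bax null, in which both genotypes differ, shares its control libraries. In RPC, 4 of 10 members were called in the first comparison, where 53.9% of all tested genes were called, and 6 of 10 in the second, where 53.1% were. In neurogenic cells the counts were 4 of 9 (all genes 47.3%) and 4 of 9 (47.1%), and in RGC 4 of 7 (52.7%) and 5 of 7 (50.0%). Cones had 3 of 5 (28.1%) and 4 of 5 (27.5%), and horizontal cells 3 of 6 (29.2%) and 2 of 6 (30.2%). Read against these shares, the members' counts in RPC, neurogenic cells and RGC are near the background, as is that of horizontal cells in the second comparison. The other counts in cones and horizontal cells rest on only 5 and 6 members tested. In cones, horizontal cells and RGC all of the called members were higher in the Atoh7 null groups, whereas in neurogenic cells all 4 called members were lower in the first comparison and 3 of 4 in the second. The scaling sets the split over all genes: with TMM, 3596 genes were called higher and 3626 lower in RPC in the first comparison, and on library totals alone 8903 and 920. The split went in the same way from 2743 and 2775 to 7056 and 824 in neurogenic cells, from 2776 and 2804 to 6440 and 981 in RGC, from 1179 and 1470 to 4161 and 488 in cones, and from 1214 and 1403 to 3959 and 529 in horizontal cells. In the second comparison it went from 3570 and 3549 to 8088 and 884 in RPC.

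Etv5 (chr16:22381309-22439719, minus strand, GRCm38) differed most in neurogenic cells. Its level there was 20.9 and 24.8 in Bax null, 6.05 and 5.87 in Bax het Atoh7 null libraries, and 7.01 and 7.15 in Bax null Atoh7 null. Both Atoh7 null groups lay below both Bax null libraries, with no overlap. The log2 fold change was -1.70 (SE 0.17, edgeR adjusted p = 1.02e-05) for Bax null Atoh7 null minus Bax null and -1.94 (SE 0.17, adjusted p = 4.96e-06) for Bax het Atoh7 null minus Bax null. In RPC, Etv5 was at 38.1 and 39.3 in Bax null, 25.5 and 27.0 in Bax het Atoh7 null libraries, and 25.3 and 23.3 in Bax null Atoh7 null, again without overlap. It fell by 0.67 (SE 0.08, edgeR adjusted p = 1.54e-04) and 0.56 (SE 0.08, adjusted p = 4.27e-04) on the log2 scale. In RGC its level was between 2.86 and 5.89 in all 6 libraries, and neither comparison was called (log2 fold change 0.14 for Bax null Atoh7 null minus Bax null, SE 0.39).

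Neurogenic cells of the 3 groups filled partly different clusters of the authors, the largest being cluster 61 for Bax null, cluster 16 for Bax het Atoh7 null and cluster 4 for Bax null Atoh7 null. With only the 17 of 27 neurogenic clusters that held at least 20 cells in every library, Etv5 in neurogenic cells still differed by -1.35 (edgeR adjusted p = 1.25e-04) and -1.48 (adjusted p = 8.35e-05). Without the shared barcodes of the Bax null Atoh7 null libraries that value in the first comparison was -1.85 (edgeR adjusted p = 1.47e-05). The RPC values depend on the scaling: TMM places the median gene near 0. On library totals alone the median gene in RPC differed by 0.64 and 0.54 in the same 2 comparisons and Etv5 in RPC by -0.04 (edgeR adjusted p = 0.72) and -0.02 (adjusted p = 0.83). Its neurogenic differences remained called on library totals, at -1.11 and -1.43.

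Etv1 (chr12:38779380-38870484, plus strand, GRCm38) moved in opposite directions in different cell types. In neurogenic cells it was at 14.8 and 14.9 in Bax null, 9.75 and 10.4 in Bax het Atoh7 null libraries, and 10.5 and 8.47 in Bax null Atoh7 null. It fell by 0.63 (SE 0.17, edgeR adjusted p = 0.0081) and 0.56 (SE 0.16, adjusted p = 0.014) on the log2 scale. Neither call held with the matched clusters (-0.28, edgeR adjusted p = 0.28, and -0.44, adjusted p = 0.10) or in DESeq2 (adjusted p = 0.060 and 0.11). The second was also lost without any 1 of the 4 libraries it compares (adjusted p from 0.054 to 0.077). In RGC it was at 2.68 and 2.98 in Bax null, 10.97 and 8.84 in Bax het Atoh7 null libraries, and 8.24 and 10.9 in Bax null Atoh7 null. There it rose by 1.74 (SE 0.29, edgeR adjusted p = 2.49e-04) and 1.77 (SE 0.29, adjusted p = 3.03e-04). With the 5 of 20 RGC clusters held by every library the changes were 1.35 (edgeR adjusted p = 0.033) and 1.26 (adjusted p = 0.061). Those clusters kept 28.0% and 25.5% of the RGC of the Bax null libraries and 47.7% to 50.7% elsewhere. In RPC, where Etv1 stood between 33.2 and 40.1, no comparison of it was called.

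Promoter windows of these ETS genes are printed because their levels differed between the Atoh7 genotypes. Both were read from RefSeq (GRCm38.p6, 250 bases before the annotated start, 5′ to 3′ on the gene's strand, without bases that fall in GENCODE exons); 7 of the 10 members were matched, and Fgf15, Spry4 and Etv4 were not. Capitals mark matches, on either strand, to CAGCTG or CATCTG, letters of the E-box class that bHLH proteins bind.
Etv5, chr16:22439720-22439820: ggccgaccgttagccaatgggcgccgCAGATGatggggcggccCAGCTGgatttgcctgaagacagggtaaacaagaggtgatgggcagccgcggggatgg
Etv1, chr12:38779832-38780081: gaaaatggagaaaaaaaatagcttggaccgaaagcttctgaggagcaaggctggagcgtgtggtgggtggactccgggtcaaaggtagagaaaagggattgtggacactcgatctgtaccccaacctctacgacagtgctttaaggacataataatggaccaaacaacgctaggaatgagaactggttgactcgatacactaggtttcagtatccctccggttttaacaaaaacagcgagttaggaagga
The Etv5 stretch holds CAGATG, the reverse complement of CATCTG, 224 bases and CAGCTG 207 bases before the start, and the Etv1 stretch holds neither. A second annotated Etv1 start has CATCTG 194 bases before it, in bases that lie in an exon and are not printed. The window of a second Etv5 start, and those of Fgf3, Fgf9, Spry1, Spry2 and Dusp6, held neither. Among all 32851 RefSeq windows of 250 bases, 4745 (14.4%) held CATCTG and 4271 held CAGCTG on either strand. CACGTG and the ETS motif CCGGAAG, searched in the same way and found in 6.02% and 6.91% of all windows, matched in none of the 9 windows of the 7 members. These are matches of letters, and binding was not measured.

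Fgf15 in RPC lay higher in both Atoh7 null groups than in Bax null without overlap, by 0.15 (SE 0.11, edgeR adjusted p = 0.27) and 0.17 (SE 0.11, adjusted p = 0.20) on the log2 scale, and neither was called. Without Bax null Atoh7 null replicate 1 both were called (0.19, edgeR adjusted p = 0.033, and 0.17, adjusted p = 0.019), as was the second without replicate 2 of that group (0.17, adjusted p = 0.018). With the 40 of 84 RPC clusters held by every library, which kept 44.2% to 50.02% of the cells of each library, the differences were 0.44 (edgeR adjusted p = 0.0083) and 0.50 (adjusted p = 0.0042). In neurogenic cells Fgf15 was at 640 and 742 in Bax null, 484 and 507 in Bax het Atoh7 null libraries, and 553 and 460 in Bax null Atoh7 null. It fell by 0.45 (SE 0.12, edgeR adjusted p = 0.011) and 0.48 (SE 0.12, adjusted p = 0.0077), but with matched clusters the differences were 0.02 (edgeR adjusted p = 0.92) and 0.01 (adjusted p = 0.98), and on library totals they turned to 0.14 and 0.03. Neither call held without Bax null replicate 2 (-0.34, edgeR adjusted p = 0.15, and -0.37, adjusted p = 0.12), nor the second with Bax het Atoh7 null replicate 1 left out (-0.45, adjusted p = 0.067). The summed progenitor markers were also higher in neurogenic cells of Bax null, at 5766 and 6201 against 3697 to 3909 in the other 4 libraries; their part in the result was not tested.

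In the more mature cell types Fgf15 was higher in the Atoh7 null groups. In RGC its level was 99.2 and 61.2 in Bax null, 187 and 204 in Bax het Atoh7 null libraries, and 244 and 160 in Bax null Atoh7 null, a rise of 1.34 (SE 0.21, edgeR adjusted p = 1.50e-04) and 1.29 (SE 0.21, adjusted p = 2.54e-04). In cones it was at 72.0 and 83.3 in Bax null, 179 and 248 in Bax het Atoh7 null libraries, and 269 and 164 in Bax null Atoh7 null, with rises of 1.52 (SE 0.21, edgeR adjusted p = 1.87e-05) and 1.47 (SE 0.21, adjusted p = 3.29e-05). Horizontal cells showed rises of 0.93 (SE 0.15, edgeR adjusted p = 7.16e-05) and 0.65 (SE 0.15, adjusted p = 0.0026), the second of which was lost without Bax null replicate 2 (0.45, adjusted p = 0.13) or Bax het Atoh7 null replicate 2 (0.56, adjusted p = 0.058). All 3 types had both libraries of each Atoh7 null group above both Bax null libraries. With the shared barcodes left out of the Bax null Atoh7 null libraries, the first comparison gave 0.92 in RGC (edgeR adjusted p = 0.067, no longer called), 1.23 in cones (adjusted p = 0.0035) and 0.62 in horizontal cells (adjusted p = 0.026).

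Progenitor genes were compared with Fgf15 in the same cell types. Fgf15 in RGC amounted to 4.20% to 6.89% of its RPC level in the same library in Bax null and to 9.69% to 15.7% in the other 4 libraries. Of the 9 progenitor markers, 7 were likewise lower in Bax null without overlap in RGC, among them Sfrp2, a secreted Wnt modulator, at 4.99% to 7.49% against 9.54% to 14.1%, and the cyclin gene Ccnd1 at 5.91% to 8.05% against 18.8% to 24.8%. Pax6 overlapped, and the Notch target Hes5 was higher in Bax null, at 50.7% to 52.6% against 26.1% to 39.9%. The sum of all 9 markers, 27.6% to 29.1% in Bax null and 25.6% to 36.4% in the others, overlapped. Pax6 had the highest level of the 9 in RGC, at 1652 and 1736 in Bax null. It stood there at 168% to 170% of its RPC level, against 156% to 184% in the others, so the sum is weighted to Pax6.

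In cones Fgf15 was at 4.998% to 5.72% of its RPC level in Bax null and 9.95% to 17.3% in the other 4 libraries. Among the progenitor markers there, Hes1, Hes5, Ccnd1 and Sfrp2 were lower relative to RPC in Bax null without overlap, Sox2, Lhx2 and Mki67 overlapped, and Pax6 was higher. The marker sum was at 16.5% to 18.1% against 18.4% to 25.4%. In horizontal cells Fgf15 was at 16.3% to 22.0% in Bax null and 25.8% to 36.4% elsewhere. There 2 of the 9 markers (Sox2, Ccnd1) were lower in Bax null without overlap. The marker sum was higher in Bax null, at 59.2% to 62.6% against 39.9% to 53.1%. Pax6, the largest part of that sum, stood at 334% to 340% of its RPC level in Bax null and 246% to 304% elsewhere. Hes5 was higher in Bax null as well, at 94.6% to 117% against 52.1% to 79.8%. The part of progenitor transcripts in the Fgf15 difference was not tested.

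Fgf3 also differed between the groups in RPC. It was at 78.6 and 73.3 in Bax null, 110 and 115 in Bax het Atoh7 null libraries, and 116 and 120 in Bax null Atoh7 null, with a rise of 0.64 (SE 0.08, edgeR adjusted p = 1.69e-04) and 0.57 (SE 0.08, adjusted p = 3.34e-04). With matched clusters the rise was larger, 1.01 and 1.04 (edgeR adjusted p = 1.75e-05 and 1.66e-05). Fgf3 also rose in RGC by 1.61 (SE 0.28, edgeR adjusted p = 3.54e-04) and 1.25 (SE 0.30, adjusted p = 0.0043), in cones by 2.58 and 2.28, and in horizontal cells by 2.04 and 1.59, from levels between 1.11 and 8.44 in Bax null. In Bax het Atoh7 null minus Bax null the call was lost without Bax het Atoh7 null replicate 2 in RGC (1.001, edgeR adjusted p = 0.11) and horizontal cells (0.87, adjusted p = 0.24). It was also lost without Bax null replicate 1 in horizontal cells (1.39, edgeR adjusted p = 0.056) and without Bax null replicate 2 in cones (1.71, adjusted p = 0.082). In neurogenic cells it was between 26.3 and 38.0 in all libraries and not called.

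Fgf9 rose in RGC, from 58.3 and 52.3 in Bax null to 81.6 and 90.3 in Bax het Atoh7 null libraries and 85.8 and 90.3 in those of Bax null Atoh7 null. The changes were 0.67 (SE 0.10, edgeR adjusted p = 1.61e-04) and 0.65 (SE 0.11, adjusted p = 2.99e-04). Both calls held without the shared barcodes (0.55 and 0.63, edgeR adjusted p = 0.0027 and 9.38e-04) and with the matched clusters (0.83 and 0.65). The matched clusters kept only 28.0% and 25.5% of the RGC of the Bax null libraries. RGC of the groups were otherwise unlike: the summed ganglion cell markers were 15797 and 16761 in Bax null and 7770 to 9258 in the other 4 libraries, and the amacrine markers 16.1 and 16.6 against 86.9 to 114. Fgf9 in neurogenic cells fell by 0.30 (SE 0.10, edgeR adjusted p = 0.032) in the first comparison. With matched clusters the value was -0.08 (edgeR adjusted p = 0.55). The call was lost without either Bax null library (adjusted p = 0.057 and 0.25) or Bax null Atoh7 null replicate 1 (0.091). On library totals it turned to 0.29 (adjusted p = 0.039). In Bax het Atoh7 null minus Bax null it rose in RPC by 0.27 (SE 0.08, edgeR adjusted p = 0.015), a call lost on leaving out Bax het Atoh7 null replicate 2 (adjusted p = 0.089) or either Bax null library (adjusted p = 0.11 and 0.13). In the same comparison it rose in cones by 0.93 (SE 0.31, edgeR adjusted p = 0.032), lost in DESeq2 (adjusted p = 0.16). It was also lost on leaving out Bax het Atoh7 null replicate 2 (0.75, adjusted p = 0.17) or Bax null replicate 2 (0.58, adjusted p = 0.29).

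Spry2 (chr14:105891947-105896819, minus strand, GRCm38) was the 1 member that differed between the groups that share the Atoh7 null genotype and differ in Bax. In RPC its level was 13.2 and 14.2 in Bax null, 20.4 and 24.5 in Bax het Atoh7 null libraries, and 10.9 and 7.14 in Bax null Atoh7 null, so the 3 groups did not overlap. In Bax null Atoh7 null against Bax het Atoh7 null, 2.01% of all genes tested in RPC were called, 261 lower and 8 higher. Spry2 fell, as most of the called genes did, by 1.29 (SE 0.17, edgeR adjusted p = 0.011). Without the shared barcodes in both Bax null Atoh7 null libraries it was -1.17 (edgeR adjusted p = 0.029). Over the alternatives the adjusted p ranged from 9.08e-08 to 0.13, the highest on leaving out Bax het Atoh7 null replicate 2, where the difference was -1.15 and no longer called. The other comparisons of Spry2 in RPC gave 0.71 (SE 0.16, edgeR adjusted p = 0.0051; without Bax het Atoh7 null replicate 2, 0.57 and 0.051) for Bax het Atoh7 null minus Bax null and -0.58 (SE 0.18, adjusted p = 0.020) for Bax null Atoh7 null minus Bax null. The last turned to 0.05 on library totals (edgeR adjusted p = 0.80) and was not called without the shared barcodes (-0.47, adjusted p = 0.052) nor without Bax null Atoh7 null replicate 2 (-0.33, adjusted p = 0.076) or Bax null replicate 2 (-0.53, adjusted p = 0.088). Spry2 also rose in Bax het Atoh7 null minus Bax null in RGC by 1.01 (SE 0.32, edgeR adjusted p = 0.020) and in neurogenic cells by 0.64 (SE 0.24, adjusted p = 0.048), neither called by DESeq2 (adjusted p = 0.075 and 0.13). Both calls were lost without Bax het Atoh7 null replicate 2 (edgeR adjusted p = 0.14 and 0.35) or Bax null replicate 1 (0.12 and 0.26), and the RGC call also on leaving out Bax het Atoh7 null replicate 1 (0.068).

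The promoter window of Spry2, read in the same way and shown for this difference, contained none of the 4 motifs searched.
Spry2, chr14:105896820-105897069: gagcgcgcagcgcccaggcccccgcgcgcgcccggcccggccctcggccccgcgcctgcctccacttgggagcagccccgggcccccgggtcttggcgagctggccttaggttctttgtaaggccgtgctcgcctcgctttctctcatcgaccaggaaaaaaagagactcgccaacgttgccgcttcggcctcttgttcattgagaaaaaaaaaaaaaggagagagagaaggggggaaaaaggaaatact
It is rich in G and C, 62.4% of the 250 bases.

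No other member was called between those groups. In RPC the remaining 9 members were not called, and 2 of the 10 had an unadjusted p under 0.05. In neurogenic cells 0 of 9 were called (all genes 1.77%, 2 members with an unadjusted p under 0.05), in RGC 0 of 7 (2.34%), in cones 0 of 5 (1.46%) and in horizontal cells 0 of 6 (1.61%), with 0 members at an unadjusted p under 0.05 in each of the last 3. DESeq2 also called Spry2 in RPC and no other member in this comparison. Etv5 in neurogenic cells, where the 2 Atoh7 null groups stood at 5.96 ± 0.13 and 7.08 ± 0.10 (SD, n = 2 each), was among those not called.

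Dusp6 in RPC was at 46.7 and 42.3 in Bax null, 68.5 and 64.1 in Bax het Atoh7 null libraries, and 46.1 and 60.2 in Bax null Atoh7 null. It rose by 0.57 (SE 0.12, edgeR adjusted p = 0.0034) in Bax het Atoh7 null minus Bax null. Of the Bax null Atoh7 null libraries, 1 lay among those of Bax null and 1 above them, which gave 0.25 (SE 0.12, adjusted p = 0.11) against Bax null (0.43, adjusted p = 0.0032, without Bax null Atoh7 null replicate 1). In cones Dusp6 rose in both comparisons by 1.21 (SE 0.39, edgeR adjusted p = 0.024) and 1.19 (SE 0.38, adjusted p = 0.026), from 12.6 and 5.55 in Bax null, and neither was called by DESeq2 (adjusted p = 0.14 and 0.15). Neither held without Bax null replicate 2 (0.77, edgeR adjusted p = 0.24, and 0.75, adjusted p = 0.25). The second was also lost with Bax het Atoh7 null replicate 1 left out (0.92, edgeR adjusted p = 0.17). In horizontal cells it rose by 1.09 (SE 0.38, edgeR adjusted p = 0.034) in the first comparison, a call that held in 9 of 19 alternatives. It was lost without replicate 2 of Bax null, Bax het Atoh7 null or Bax null Atoh7 null (edgeR adjusted p = 0.26, 0.053 and 0.28), and without the shared barcodes (0.81, adjusted p = 0.15). Spry4 in RPC fell by 1.04 (SE 0.33, edgeR adjusted p = 0.023) and 0.86 (SE 0.32, adjusted p = 0.046) from 39 and 50 UMIs in Bax null against 14 to 19 in the others, and it was not called by DESeq2 (adjusted p = 0.090 and 0.15). The first call was lost without Bax null replicate 2 (-0.84, edgeR adjusted p = 0.16), Bax null Atoh7 null replicate 1 (-0.62, adjusted p = 0.20) or the shared barcodes (-0.93, adjusted p = 0.060). The second was lost on leaving out any 1 of the 4 libraries it compares (adjusted p from 0.073 to 0.25). Spry1 and Etv4 were called in no comparison. The plot of log2 fold changes gathers these values.

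**Figure D2:**
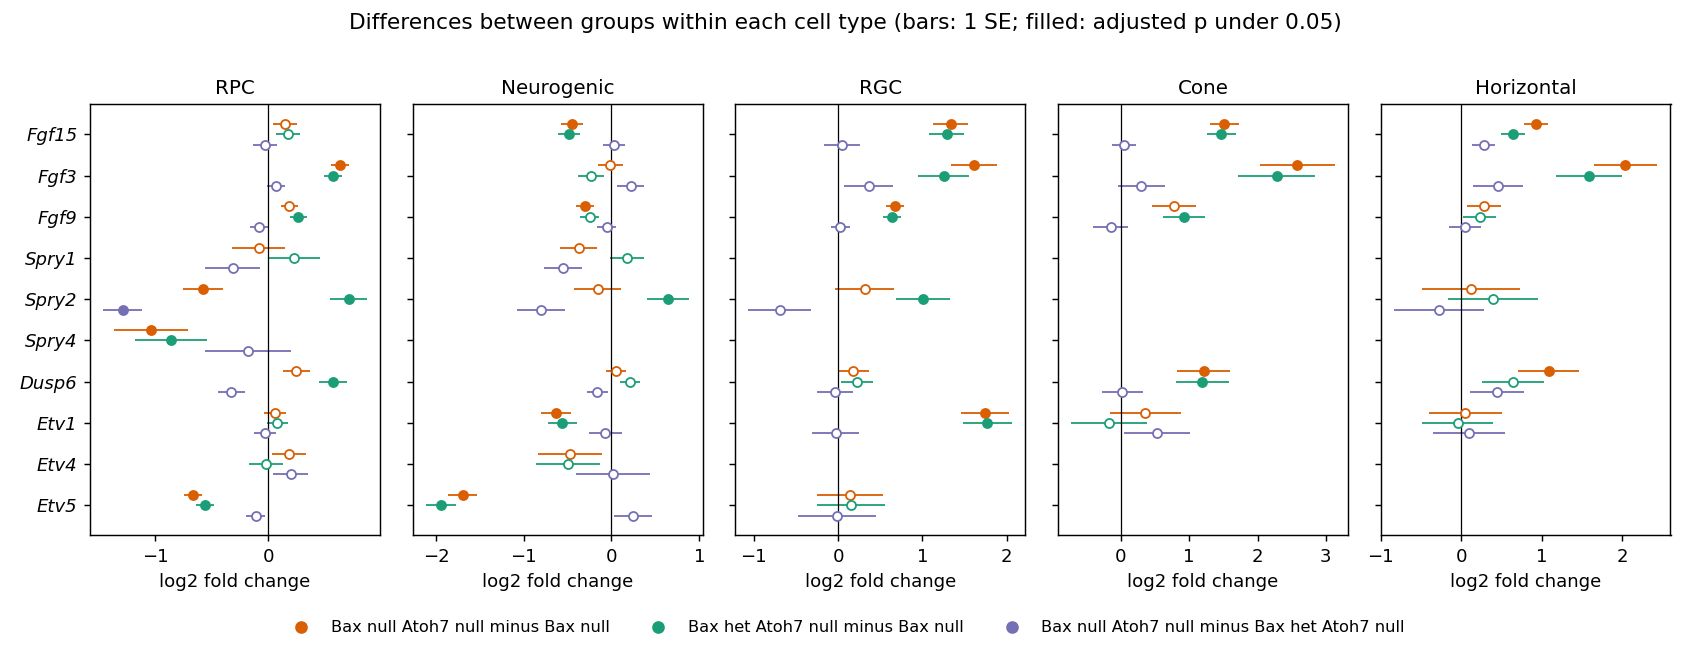
Log2 fold changes (x axis) of the 10 genes (y axis) in 5 cell types for 3 comparisons, shown by colour; bars are 1 SE and filled points have an adjusted p under 0.05. Etv5 lies to the left in neurogenic cells and RPC in both comparisons with Bax null, the ligands to the right in RGC, cones and horizontal cells, and Spry2 in RPC is the 1 filled point of the third comparison.

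A fit on differences within a library, which takes each cell type relative to RPC of the same library, also separated neurogenic cells from the other types. A scaling shift shared by both types of a library cancels in that fit, while the TMM factors of the single sums still enter it. In that fit 38 combinations of member and cell type were tested. Relative to RPC, 5 members were lower in neurogenic cells in Bax null Atoh7 null minus Bax null, where 7.46% of all genes were called, and 6 in Bax het Atoh7 null minus Bax null (8.35%). In the other direction, 5 members were higher in RGC in the first comparison (15.7% of all genes called) and 3 in the second (15.2%), 2 and 2 in cones (4.91% and 5.30%), and 2 and 1 in horizontal cells (3.09% and 2.65%). Etv5 had the lowest value, -1.02 (SE 0.18, edgeR adjusted p = 9.56e-05) and -1.38 (SE 0.18, adjusted p = 5.49e-07) in neurogenic cells relative to RPC. A value relative to RPC can also come from a change in RPC. Fgf3 averaged 32.9 in neurogenic cells of Bax null and 32.1 in those of Bax null Atoh7 null, against 76.0 and 118 in RPC. Between the groups that differ in Bax, 0 members were called, 4 at an unadjusted p under 0.05, with 0.0%, 0.102%, 0.0152% and 0.0536% of all genes called in neurogenic cells, RGC, cones and horizontal cells.

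Members varied among RPC as well. The 66 RPC clusters with at least 30 cells in at least 4 libraries were ordered by the summed level of 5 genes of the ciliary margin, the rim of the retina (Ccnd2, Otx1, Msx1, Mitf, Wfdc1). The 5 clusters highest in that sum, 882 to 1303 against 11.9 to 636 in the other 61, held 1907 cells, 2.85% to 6.08% of the RPC of each library. Fgf3 was lowest there, at 3.59 to 21.8 in the 6 libraries against 76.2 to 128 in all other RPC, and 5.57 to 22.9 times lower within each library. Fgf15 was 2.11 to 4.50 times lower (334 to 789 against 1491 to 1721), and Fgf9 2.04 to 3.38 times lower (45.3 to 80.4 against 141 to 175). Etv5 followed the ligands, 1.86 to 3.33 times lower in 6 of 6 libraries.

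Dusp6 and Etv1 differed less in those clusters, 1.31 to 1.83 times and 1.25 to 1.42 times lower in 6 of 6 libraries. Spry2 was lower in 5 of 6 libraries and Spry1 higher in 4 of 6, so neither had a common direction, nor had Etv4 (lower in 5) and Spry4 (lower in 5). The progenitor gene Sfrp2 was lower as well (1201 against 2382 on average), while Pax6 was higher in 4 of 6 libraries (697 against 722 on average), and the pigment cell gene Pmel stood at 4.18 against 2.27. Since clusters were made from these cells and 6 of the members were used for ordering them, these are descriptions. Over the 66 clusters, which share libraries, Spearman's rho with the ciliary-margin sum was -0.81 for Fgf3, -0.72 for Fgf9, -0.52 for Fgf15 and 0.19 for Spry1.

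**Figure D3:**
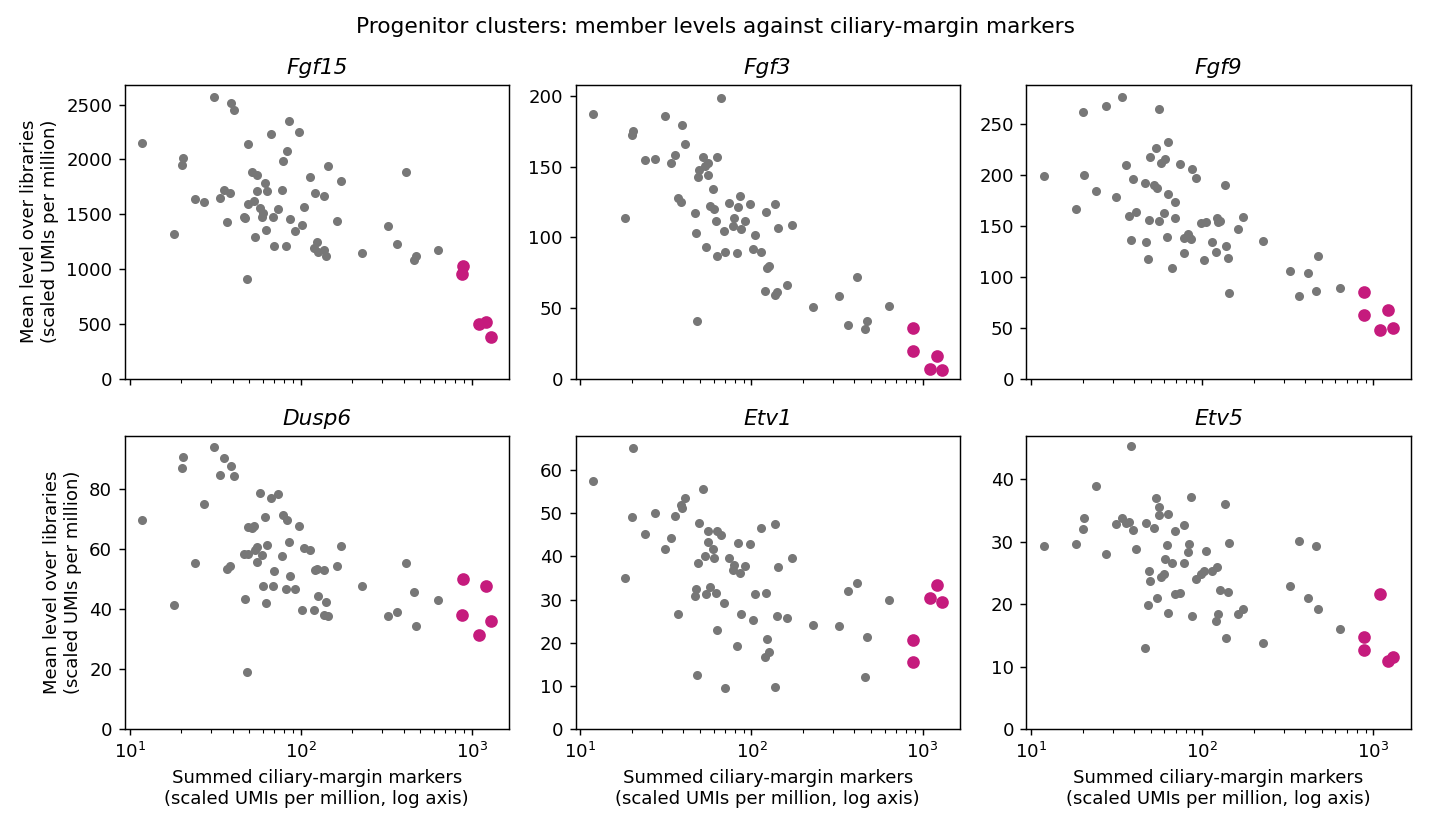
Mean level over libraries (y axis, TMM-scaled CPM) of 6 members in 66 RPC clusters against the summed ciliary-margin markers (x axis, log scale); larger magenta points are the 5 clusters highest in those markers. The 3 ligands are low in the 5 clusters, Fgf3 at 6.401 to 35.8 and Fgf15 at 379 to 1025, whereas Dusp6 and Etv1 there lie within the range of the other clusters.

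**Figure D4:**
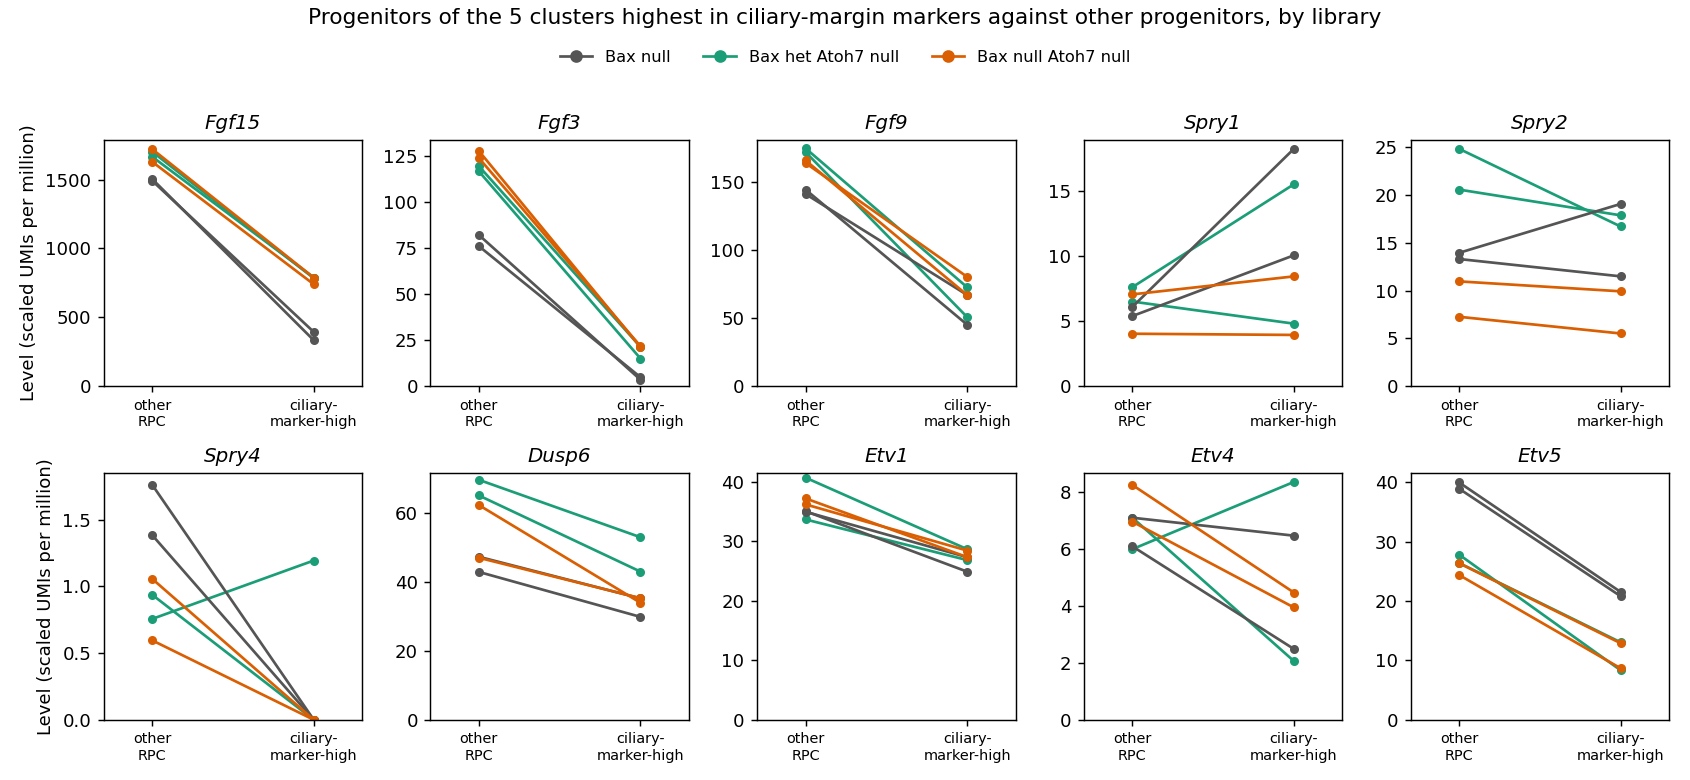
Level (y axis, TMM-scaled CPM) of the 10 genes in RPC of the 5 clusters highest in ciliary-margin markers and in all other RPC (x axis); each line is 1 library, coloured by group. Fgf15, Fgf3, Fgf9, Dusp6, Etv1 and Etv5 are lower in the ciliary-marker-high cells in 6 of 6 libraries, whereas Spry1, Spry2, Spry4 and Etv4 have no common direction.

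The other genes of the pathway were read from 7 lists of 80 genes. In Bax null Atoh7 null minus Bax null, 37 of 62 tested were called in RPC (19 higher, 18 lower; 53.9% of all genes), 28 of 58 in neurogenic cells (47.3%), 29 of 53 in RGC (52.7%), 14 of 42 in cones (28.1%) and 13 of 44 in horizontal cells (29.2%). Read against these shares of all genes, the counts are near the background, and the counts of single lists that follow stand against the same shares. Among 11 immediate early and other ERK-responsive genes tested in RPC, 6 were lower and 3 higher, and in neurogenic cells 6 were lower and 2 higher. Egr1, a zinc finger factor induced by ERK, fell by 1.89 (SE 0.20, edgeR adjusted p = 7.15e-05) in RPC and by 2.30 (SE 0.21, adjusted p = 4.59e-06) in neurogenic cells, from mean levels of 229 and 150 in Bax null. Junb, an AP-1 factor, fell by 1.81 (SE 0.23, edgeR adjusted p = 2.05e-04) and 2.01 (SE 0.18, adjusted p = 5.26e-06), and Jun, of the same family, rose by 1.60 (SE 0.09, adjusted p = 4.58e-08) in RGC and 1.73 (SE 0.17, adjusted p = 1.29e-07) in horizontal cells.

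Of 11 further feedback inhibitors tested, 5 were lower and 3 higher in RPC, and 4 were lower and 1 higher in neurogenic cells. Dusp5, a nuclear ERK phosphatase, fell by 1.29 (SE 0.26, edgeR adjusted p = 0.0026) in RPC and by 1.36 (SE 0.18, adjusted p = 1.01e-04) in neurogenic cells. Of the 18 adaptors and kinases tested in RPC, 6 were higher and 3 lower. Of 7 receptors and coreceptors tested there, 1 was higher and 2 were lower; Fgfr1, the most abundant of the receptors, stood at 41.5 ± 1.87 in RPC (SD, n = 6). Hs2st1, a heparan sulfate sulfotransferase, rose by 1.60 (SE 0.28, edgeR adjusted p = 2.04e-04) in cones and by 1.80 (SE 0.22, adjusted p = 2.11e-06) in horizontal cells, where Hs6st2, of the same enzyme class, rose by 1.39 (SE 0.30, adjusted p = 0.0014). In RGC the cell cycle gene Ccnd1 rose by 1.39 (SE 0.12, edgeR adjusted p = 1.44e-06) and the intracellular FGF homologue Fgf12 fell by 1.46 (SE 0.16, adjusted p = 7.79e-06), the latter turning to 0.60 with the matched clusters. Egr1 also fell by 1.201 (SE 0.25, edgeR adjusted p = 0.0013) and Junb by 1.62 (SE 0.22, adjusted p = 1.43e-05) in cones, both turning direction relative to RPC of the same library (0.74 and 0.24).

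The comparison with the same control libraries, Bax het Atoh7 null minus Bax null, called 37 of 62 in RPC (53.1% of all genes), 30 of 58 in neurogenic cells (47.1%), 32 of 53 in RGC (50.0%), 16 of 42 in cones (27.5%) and 11 of 44 in horizontal cells (30.2%). Egr1 fell by 1.94 in RPC, 2.54 in neurogenic cells, 1.46 in RGC and 1.73 in cones, the last 2 turning to 0.54 and 0.28 relative to RPC of the same library. Junb fell by 1.74 in RPC, 2.14 in neurogenic cells and 1.83 in cones (-0.0084 relative to RPC of the same library, not called), and Ier2, an immediate early gene, by 1.18 in RPC (SE 0.15, edgeR adjusted p = 2.45e-04). Dusp5 fell by 1.35 in neurogenic cells and 1.38 in horizontal cells (lost without Bax het Atoh7 null replicate 2, edgeR adjusted p = 0.059, or Bax null replicate 1, 0.068), where Jun rose by 1.43, and Hs2st1 rose by 1.58 in cones and 1.67 in horizontal cells. Ccnd1 rose by 1.29 and Fgf12 fell by 1.72 in RGC, the latter turning to 0.15 with the matched clusters. Between the groups that differ in Bax, 2 of the listed genes were called: Mycn, a MYC family factor, fell by 0.64 (SE 0.12, edgeR adjusted p = 0.0099) in RGC, and Ier3 in RPC, at 4.77 against 2.21, rose by 1.12 (SE 0.19, adjusted p = 0.022). Ier3 was chosen after its values were seen, and Mycn lost its call without Bax het Atoh7 null replicate 2.

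The genes most alike to each member across cell types were found from Pearson's r over 30 sums (6 libraries by 5 types, centred within each library), among 9391 genes. Since the 5 types repeat in every library, r describes the shared cell type profile. The 3 nearest genes, in order, were Plagl1 (r = 0.99), the Notch target Hes1 (0.98) and Cox4i2 (0.98) for Fgf15, Cyr61 (0.98), Id2 (0.98) and Lpar1 (0.98) for Fgf3, and Ptprz1 (0.94), Vax2 (0.93) and Eno1 (0.93) for Fgf9. For Spry1 they were Hnrnpul1 (0.94), Tex30 (0.93) and Ezh2 (0.93), and for Spry2 Fhl1 (0.91), Epdr1 (0.90) and Atic (0.90). Those of Dusp6 were the ribosomal protein genes Rplp1 (0.96) and Rps12 (0.96), and Vamp3 (0.96). Dapl1 (0.93), Hebp1 (0.91) and Crtap (0.91) came nearest to Etv1, and Gm3716 (0.95) with the ribosomal protein genes Rps12 (0.94) and Rpl23a (0.94) to Etv5. Between members, Fgf15 and Fgf3 had r = 0.96 and Dusp6 and Etv5 0.92, while Spry1 had r of 0.13 with Fgf9 and 0.50 with Fgf15.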

How the data were processed

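The authors deposited a matrix of raw UMI counts per gene and cell, with tables of cells (totals, cell type, cluster) and genes; Cell Ranger 1.2.1 and mm10 are named in the submitters' processing notes, and filters on cells are not given in the sources used here. Matrix sums equalled the deposited totals of UMI counts in all 67050 cells used, and cells of 2 further libraries in the table were not analysed here. Counts were summed per library and cell type, filtered with filterByExpr, scaled by TMM and tested with the quasi-likelihood F test of edgeR 4.0.16 in R 4.3.3, with 6 libraries and group as the only term; DESeq2 1.42.0 was an alternative. SE is the log2 fold change divided by the square root of F, and tests were two-sided. The library was the replicate. Library totals were 22463515 to 66594431 UMIs, and low counts limit Spry4 most. No doublet caller was run; leaving out the 8% of cells with most UMIs was an alternative. Thinning used 1000 UMIs per cell. The members and lists were chosen with earlier results of these data known. All 10 members are described; of the other pathway genes, those called, at 20 or more in the higher group and without overlap were named, the 3 with the largest change per comparison and type (Ier3, Fgf18 and Fgfr1 were named after their values were seen). Nearest genes were sought for members at 10 or more in their highest type. Leaving out shared barcodes and matching clusters were alternatives added after seeing the data. The test was tried on simulated data.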

Additional observations from a re-analysis of the deposited data

Results flagged for a closer look

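For 26 combinations of member, cell type and comparison, the difference between groups in that cell type was itself different from the difference in RPC of the same libraries, by the edgeR test of that interaction (adjusted p under 0.05): 14 in Bax null Atoh7 null minus Bax null and 12 for Bax het Atoh7 null against the same control libraries. The values that follow are log2 differences relative to RPC.

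In neurogenic cells all of these values were below 0. For Bax null Atoh7 null minus Bax null they were -1.02 for Etv5, -0.67 for Etv1, -0.62 for Fgf3, -0.57 for Fgf15 and -0.47 for Fgf9. For Bax het Atoh7 null minus Bax null they were -1.38 for Etv5, -0.79 for Fgf3, -0.64 for Fgf15, -0.64 for Etv1, -0.51 for Fgf9 and -0.35 for Dusp6.

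In RGC, cones and horizontal cells all were above 0. In RGC the first comparison gave 1.71 for Etv1, 1.22 for Fgf15, 1.005 for Fgf3, 0.94 for Spry2 and 0.51 for Fgf9, and the second gave 1.67 for Etv1, 1.13 for Fgf15 and 0.38 for Fgf9. In cones they were 2.07 for Fgf3 and 1.46 for Fgf15 in the first, and 1.82 for Fgf3 and 1.36 for Fgf15 in the second. In horizontal cells Fgf3 gave 1.46 and Fgf15 0.83 in the first, and Fgf15 gave 0.52 in the second.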

How the results depend on the processing

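Over the 44 member results named, 818 values under up to 19 alternatives were computed: 702 kept their direction and call, 96 lost the call, 11 gained one and 9 changed sign. Etv5 in neurogenic cells kept its call in 19 of 19 in both comparisons with Bax null. On library totals Spry2 in RPC turned to 0.046, Fgf15 in neurogenic cells to 0.14 and, with Bax het Atoh7 null, 0.033, and Fgf9 to 0.29. With matched clusters Fgf15 in neurogenic cells turned to 0.019 and 0.0060, and Fgf12 in RGC to 0.60 and 0.15. Within libraries Spry2 in neurogenic cells turned to -0.059 in Bax het Atoh7 null minus Bax null, Egr1 in cones to 0.74 and, for Bax het Atoh7 null minus Bax null, 0.28, Egr1 in RGC to 0.54 and Junb in cones to 0.24. Etv5 in RGC, not called, turned to -0.16 without the shared barcodes and -0.19 without Bax null replicate 2 (-0.19 to 0.56 with 1 library left out). The cause was not tested.

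Member calls numbered 18 for Bax null Atoh7 null minus Bax null, and between 12 and 20 with 1 library left out, the lowest without Bax null replicate 2; DESeq2 called 12. For Bax het Atoh7 null minus Bax null they numbered 21, in DESeq2 13, within libraries 12, and from 11 (without Bax het Atoh7 null replicate 2) to 23 with 1 library left out, with 13 without Bax null replicate 2. For Bax null Atoh7 null against Bax het Atoh7 null there was 1, 2 with no filter on low counts, from 0 (edgeR, without Bax het Atoh7 null replicate 2, 4 at an unadjusted p under 0.05) to 2 with 1 library left out, and 0 within libraries (edgeR, 4 at an unadjusted p under 0.05); DESeq2 on the sums called 1.

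Other pathway genes were called 121 times in the first comparison, 188 on library totals, 40 within libraries and 92 to 123 with 1 library left out. In Bax het Atoh7 null minus Bax null the counts were 126, 35 within libraries, and 94 to 145. Between the Atoh7 null groups they were 2, with 4 on library totals, 1 with matched clusters, 1 within libraries, and from 0 (edgeR, without Bax het Atoh7 null replicate 2, 18 at an unadjusted p under 0.05; DESeq2 on all 6 libraries called 2) to 6 (without Bax null Atoh7 null replicate 2). With a group left at 1 library, that library is assumed to vary like the others.

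Between the Atoh7 null groups, correlations of same-numbered deviations were 0.45 in RPC, 0.40 in neurogenic cells, 0.31 in RGC, 0.18 in cones and 0.05 in horizontal cells. They were -0.17 to -0.02 between both nulls and Bax null, and -0.01 to 0.07 for the other pair. Same-numbered libraries of the Atoh7 null groups thus varied partly together, and the labels do not say why. With a replicate block, Spry2 in RPC differed between those groups by -1.29 (edgeR adjusted p = 0.0038). With the replicate block 18, 1 and 21 members and 121, 3 and 125 pathway genes were called in, respectively, Bax null Atoh7 null against Bax null, both Atoh7 null groups against each other, and Bax het Atoh7 null against Bax null. Low counts left Spry4 untested outside RPC, Spry1, Etv4, Spry2 and Etv5 in cones, Spry1, Etv4 and Etv5 in horizontal cells, and Spry1 and Etv4 in RGC.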
